A study of Homo sapiens with 6 samples.

Results

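Interferon-stimulated genes are the genes that cells switch on after an interferon binds its receptor, and their products form an antiviral defence inside the cell. A set of 41 such genes was taken by symbol from a deposited table of 58395 genes. Each symbol was found once in the table, so no choice between identifiers was needed. RNA-seq was made from SH-SY5Y cells, a human neuroblastoma line that can be turned into neuron-like cells, in 3 libraries labelled Tau and 3 libraries labelled control. By the study's methods, the Tau cells were transfected with a plasmid encoding the Tau 0N4R isoform and the control cells with the empty plasmid, and both were then differentiated with retinoic acid followed by BDNF. Both groups therefore carry the same backbone and the same transfection and differentiation, and transfection with a plasmid need not reach every cell. The labels do not say whether the 3 libraries of a group came from separate cultures, so p-values measure the spread between these libraries, which may be technical. MAPT, the gene of Tau, did not check the labels: its level was 34.6, 32.6 and 34.6 counts per 1000000 reads (CPM) in Tau libraries, against 34.8, 51.9 and 41.6 CPM in control libraries, with a log2 fold change of -0.33 and an adjusted p of 0.239 (edgeR). The groups are therefore called by their labels, and every direction given here is that of the libraries labelled Tau.

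Interferons are secreted proteins. Type I interferons bind the receptor subunits IFNAR1 and IFNAR2, whose kinases TYK2 and JAK1 phosphorylate STAT2 and its partner proteins. With IRF9 these form a complex that binds interferon-stimulated response elements in promoters, while type II interferon acts at gamma-activated sites. Cells make interferon after sensors such as RIG-I (DDX58) and MDA5 (IFIH1) meet foreign RNA, or after cGAS meets DNA in the cytoplasm. Neurons respond to interferon too, to a degree that varies between neuron types.

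The response elements were looked for in RefSeq promoter windows (GRCh38.p14) that run over 250 bases before and 50 bases after a transcription start. Windows were matched by symbol for 32 of the 41 genes, DDX58 under its newer symbol RIGI, and the others were IFIT2, IFITM2, MX2, OAS2, OASL, GBP2, IRF7, TRIM22 and USP18. A tandem half-site, GAAANNGAAA on either strand, was present for 23 of the 32 genes, against 4.38% of all 27305 genes with a window. The palindrome TTCNNNGAA, the core of a gamma-activated site, was present for 10 of the 32, against 9.38% of all genes. The tandem was found for 5 of the 6 genes with a window among those called higher below, for 7 of 13 tested genes that were not called, and for 11 of 13 genes with too few reads to test. The letters below show the matched elements nearest to the results, for 5 genes called higher and for ISG15 and IFIT1, which were not called. Each is 30 bases, read 5′ to 3′ on the gene's strand, with every match to either pattern in capitals.
IFI6: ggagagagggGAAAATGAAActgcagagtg
BST2: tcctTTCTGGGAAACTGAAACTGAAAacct
IFITM3: gGAAAAGGAAActgttgaGAAACCGAAAct
IFI27: cagTTTCGGTTTCCTGGAAAATGAAAccta
PARP9: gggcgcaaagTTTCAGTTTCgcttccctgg
ISG15: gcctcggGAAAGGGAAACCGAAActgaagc
IFIT1: tagTTTCACTTTCcccTTTCGGTTTCccta

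These stretches lie at chr1:27672288-27672317 on the minus strand (IFI6), chr19:17405741-17405770 on the minus strand (BST2), chr11:320884-320913 on the minus strand (IFITM3) and chr14:94110625-94110654 on the plus strand (IFI27). The others lie at chr3:122564322-122564351 on the minus strand (PARP9), chr1:1013377-1013406 on the plus strand (ISG15) and chr10:89392504-89392533 on the plus strand (IFIT1). In BST2 and IFI27 a palindrome overlaps a tandem, so that the 2 patterns share bases. IFI6 holds 3 tandem matches in its window, and the one printed begins at -115 from the start. PARP9 and DTX3L start from opposite strands of one promoter region, and the match printed for PARP9 is also the match of DTX3L, at chr3:122564332-122564341. DDX58, the sixth gene with a window among those called, held neither pattern in its window. A match is a run of letters, not a measured binding site.

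Most of the 41 genes were low. Levels between genes are given as RPKM, the deposited reads per 1000000 reads and per kilobase, which divide by the total reads of each library. By mean RPKM over the 6 libraries, 6 of the 41 genes reached 1 RPKM, and 4 (IFI44L, MX2, OAS2 and XAF1) had 0 reads in all 6 libraries. A count of 0 allows up to 3 reads, which is 0.0947 to 0.107 reads per 1000000 (RPM) in Tau libraries and 0.0946 to 0.106 RPM in control libraries. The most abundant was IFI6, which codes for a small membrane protein that opposes cell death and virus replication, at 14.5, 11.1 and 12.8 RPKM in Tau libraries, against 7.0, 8.31 and 8.44 RPKM in control libraries. IRF7, the transcription factor that amplifies type I interferon genes, came next at 8.14, 4.82 and 4.96 RPKM in Tau libraries, against 5.74, 6.83 and 7.32 RPKM in control libraries. ISG15, a ubiquitin-like protein, STAT2 and IFIT5, an RNA-binding protein, completed the 5 most abundant, which together took 66.5% of all reads of the 41 genes. Their mean levels were 5.19 RPKM in Tau against 3.98 RPKM in control for ISG15, 3.61 against 4.23 RPKM for STAT2, and 1.64 against 2.75 RPKM for IFIT5. Within each library IFI6 was above IRF7, and IRF7 was above ISG15 in every library but Tau replicate 2. ISG15 was above STAT2 in Tau replicates 1 and 2 and below it in the other libraries, and STAT2 was above IFIT5 in every library.

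**Figure D1:**
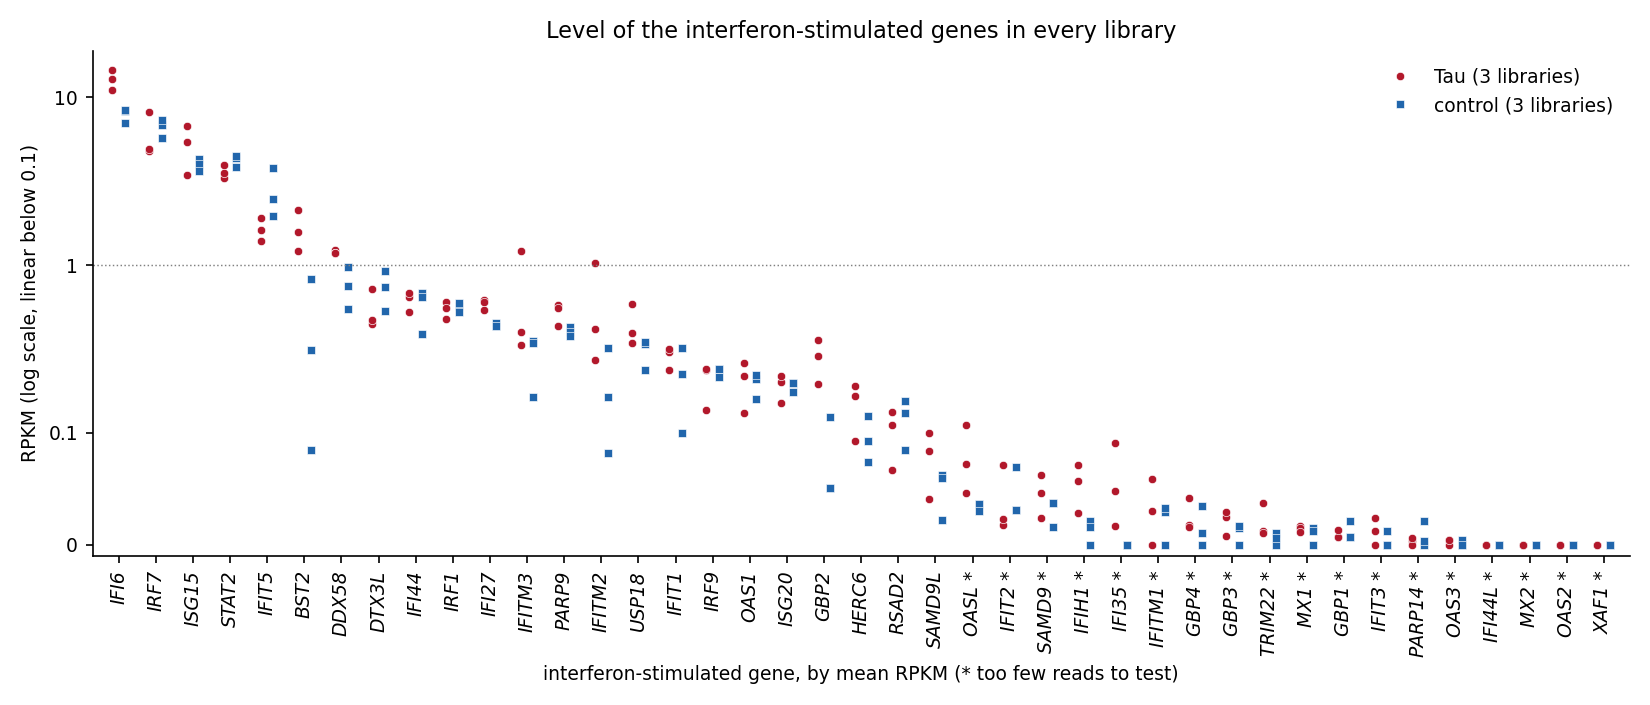
Level in RPKM (vertical axis, log scale, linear below 0.1) of each of the 41 interferon-stimulated genes in every library, ordered by mean level, with Tau libraries as red circles on the left and control libraries as blue squares on the right of each gene. IFI6 stands at 11.1 to 14.5 RPKM in Tau and 7.0 to 8.44 RPKM in control, and the genes marked with an asterisk had too few reads to test.

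Reads of the 41 genes were then compared between the groups with edgeR's quasi-likelihood test. A gene was tested when its reads passed edgeR's low-count filter, which here meant about 0.319 RPM in at least 3 libraries, and it was called when its adjusted p was under 0.1 and its log2 fold change over 0.5 in size. The study used the same limits but required them of several packages together, while edgeR alone is used here. Of the 41 genes, 23 were tested and 18 were not. Called higher in Tau were 8 of the 23, which is 34.8%, and 9.37% of all 16778 tested genes were called higher. Called lower were 0 of the 23, against 8.42% of all tested genes. The test gave 0 of the 23 genes lower at an unadjusted p below 0.05 as well, and 11 higher. The share of all tested genes at that limit was not counted, so these counts have no background. DESeq2 called 0 of the 41 lower, against 1554 of 17311 genes tested there. Of the 18 genes that edgeR did not test, only SAMD9 had an adjusted p in DESeq2. The rest of those 18 could not be called by it in either direction. BST2, GBP2, IFITM2 and IFITM3 reached the filter's level in every Tau library but not in every control library, so their Tau values helped them pass the filter. Among the 18 genes at that level in all 6 libraries, 4 were called higher (IFI6, IFI27, DDX58 and PARP9), which is 22.2%, against 8.74% of all 15184 genes at that level throughout.

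Values per library below are CPM after TMM scaling, which applies 1 factor per library to lessen the effect of differences in RNA composition. It does not remove trends with GC content or with the mitochondrial share, which are given further below. Among the called genes, IFI6 (chr1:27666064-27672212, minus strand, GENCODE 44 on GRCh38) had 11.8, 12.5 and 12.9 CPM in Tau libraries, against 5.94, 5.38 and 7.02 CPM in control libraries. Every Tau library was above every control library, and the log2 fold change was 1.02 ± 0.19 (SE) with a 95% interval of 0.61 to 1.43 and an adjusted p of 0.0120. It was called under each of the 21 alternative settings tried, those that leave out a library included. IFI27 (chr14:94104836-94116695, plus strand), of the same protein family, had 2.42, 3.28 and 2.61 CPM in Tau libraries, against 1.76, 1.39 and 1.74 CPM in control libraries. Its groups did not overlap either, with a log2 fold change of 0.76 ± 0.26 and an adjusted p of 0.0814, and it was called in 9 of the 21 alternatives.

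BST2 (chr19:17402939-17405630, minus strand) codes for tetherin, which holds budding virus particles at the cell surface. It had 1.65, 1.77 and 2.79 CPM in Tau libraries, from 49, 42 and 76 reads, against 0.340, 0.0708 and 0.886 CPM in control libraries, from 11, 3 and 26 reads. Its log2 fold change of 2.33 ± 0.57 had an interval of 1.08 to 3.57 and an adjusted p of 0.0295. It was the largest of the 23 genes in this fit, but in 4 of the 21 alternatives, the one with the GC trend removed among them, GBP2 was larger. Without control replicate 3 the log2 fold change of BST2 was 3.395. The control libraries differed widely among themselves, with control replicate 2 lowest, and all lay below the Tau libraries. The gene kept its call in 19 of the 21 alternatives, the exceptions being the fit without control replicate 1 and the fit with the mitochondrial share as a covariate.

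GBP2 (chr1:89106132-89150456, minus strand) codes for a guanylate-binding protein, a GTPase that attacks the membranes around intracellular pathogens. It had 1.68, 1.60 and 2.61 CPM in Tau libraries, against 0.309, 0.236 and 0.750 CPM in control libraries, and the groups were apart. Its log2 fold change was 2.22 ± 0.43 with an adjusted p of 0.0139. It was called in 20 of the 21 alternatives and lost in the fit without control replicate 1, with an adjusted p of 0.109. GBP2 shares 621 exon bases with its neighbour GBP7 on the same strand, and GBP7 itself had 5, 2 and 5 reads in Tau libraries and 0 in each control library. The other listed guanylate-binding proteins were too low to test: GBP1 had 1, 1 and 2 reads in Tau libraries and 1, 1 and 3 in control libraries. GBP3 had 3, 1 and 4 reads in Tau libraries and 0, 2 and 2 in control libraries, and GBP4 had 3, 3 and 8 reads in Tau libraries and 0, 2 and 6 in control libraries.

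The IFITM proteins sit in membranes and block the entry of enveloped viruses. IFITM2 (chr11:303655-309397, plus strand) had 0.605, 0.547 and 1.84 CPM in Tau libraries, against 0.124, 0.189 and 0.477 CPM in control libraries. IFITM3 (chr11:319676-329475, minus strand) had 0.504, 0.589 and 1.91 CPM in Tau libraries, against 0.217, 0.354 and 0.443 CPM in control libraries. In both genes Tau replicate 3 stood well above the other Tau libraries, with 50 reads of IFITM2 and 52 of IFITM3, and the groups did not overlap. The log2 fold changes were 1.95 ± 0.58 (adjusted p = 0.0541) for IFITM2 and 1.56 ± 0.53 (adjusted p = 0.0807) for IFITM3. Without Tau replicate 3 the log2 fold changes were 1.18 for IFITM2 and 0.70 for IFITM3, and neither was called. IFITM1 had 0, 1 and 2 reads in Tau libraries and 0, 1 and 1 in control libraries. These paralogs are nearly identical, so their reads may have been divided between them or lost in alignment, and the split among the 3 genes is uncertain.

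DDX58 (chr9:32455302-32526208, minus strand) codes for RIG-I, the sensor of uncapped viral RNA, and is itself raised by interferon. It had 5.01, 6.73 and 5.98 CPM in Tau libraries, against 3.22, 1.79 and 4.05 CPM in control libraries. The groups were apart, with a log2 fold change of 0.97 ± 0.29 and an adjusted p of 0.0549, and it was called in 12 of the 21 alternatives. Another gene model that GENCODE 44 places on the same strand shares 4471 of its exon bases and has no row in the count table. The related sensor IFIH1 was too low for the filter, with 9, 8 and 4 reads in Tau libraries and 0, 3 and 2 reads in control libraries.

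PARP9 (chr3:122527924-122564577, minus strand) codes for a protein that pairs with the ubiquitin ligase DTX3L and promotes interferon signalling. It had 4.87, 5.05 and 5.76 CPM in Tau libraries, against 3.74, 2.67 and 3.24 CPM in control libraries, with a log2 fold change of 0.70 ± 0.23 and an adjusted p of 0.0710. It was called in 10 of the 21 alternatives. DTX3L, which starts from the same promoter region, had 3.96, 3.41 and 3.19 CPM in Tau libraries, against 4.27, 4.06 and 3.00 CPM in control libraries. Its groups overlapped and its log2 fold change was -0.10, with an interval of -0.62 to 0.42. PARP9 and DTX3L share 139 exon bases on opposite strands, and the strand setting of the counting is not given in the sources used here. Their relative PARP14 had 1, 0 and 2 reads in Tau libraries and 7, 0 and 1 in control libraries.

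**Figure D2:**
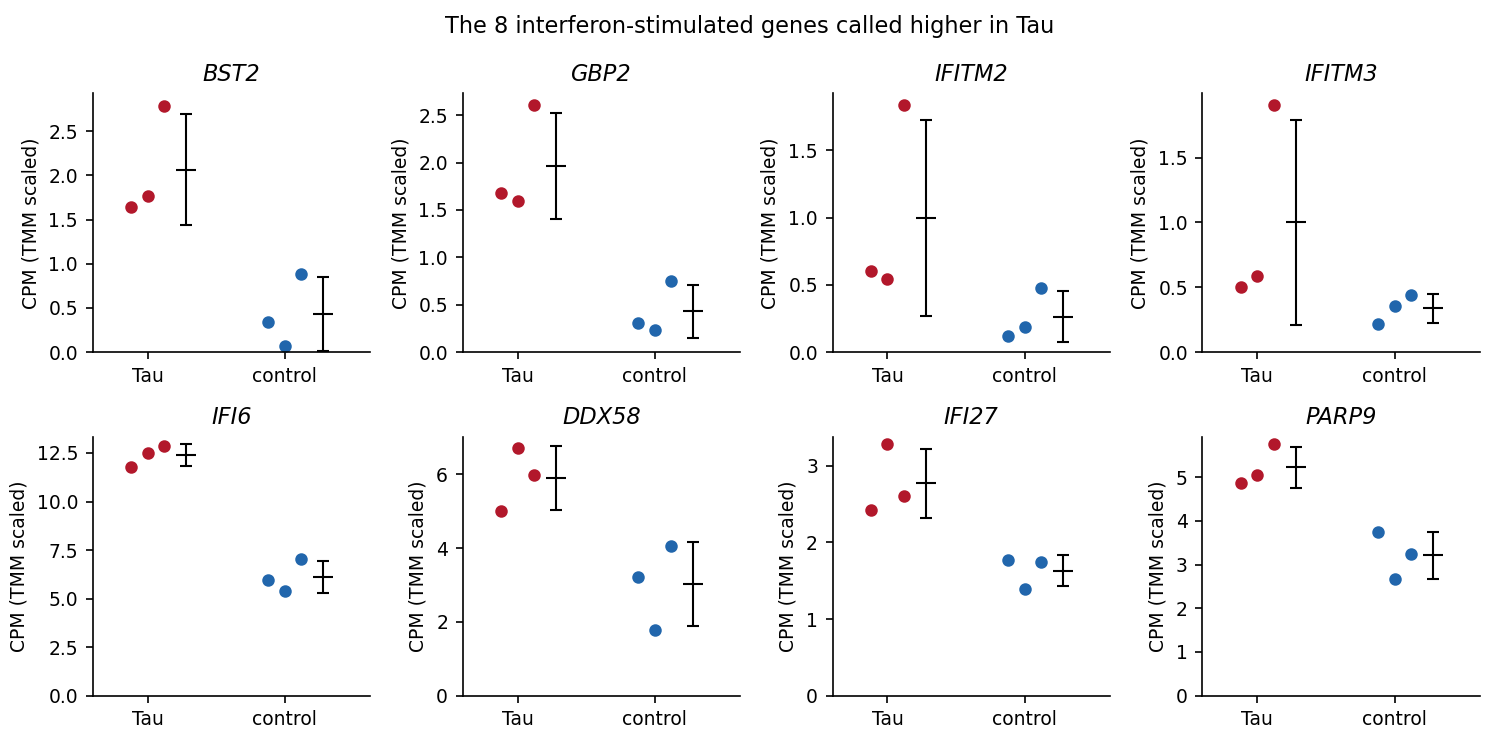
CPM after TMM scaling (vertical axes, each from 0) of the 8 genes called higher, with 1 point per library, Tau in red on the left and control in blue on the right, and the mean with its SD (n = 3) in black beside each group. IFI6 reads 11.8 to 12.9 CPM in Tau and 5.38 to 7.02 CPM in control, while in IFITM2 and IFITM3 one Tau library, at 1.84 and 1.91 CPM, lies far above the others.

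Of the ISG15 system, ISG15 had 5.95, 6.64 and 3.78 CPM in Tau libraries, against 3.99, 2.81 and 3.31 CPM in control libraries. Tau replicate 3 lay below control replicate 1, so the groups overlapped, and the log2 fold change of 0.70 (interval 0.13 to 1.27) had an adjusted p of 0.107. It was called by DESeq2 (adjusted p = 0.0840) and by edgeR without the low-count filter (adjusted p = 0.0707), and with the GC trend removed its log2 fold change was 0.32. USP18, the protease that removes ISG15 from its targets and damps the type I receptor, had 1.18, 1.09 and 0.844 CPM in Tau libraries, against 0.495, 0.543 and 0.716 CPM in control libraries. Its groups did not overlap, but its log2 fold change of 0.83 did not pass the test (adjusted p = 0.119). HERC6, a ligase of the family that attaches ISG15, had a log2 fold change of 0.95 with overlapping groups and an adjusted p of 0.141. Without control replicate 3, USP18 was called higher, and with Tau replicate 3 left out ISG15 was.

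The IFIT proteins bind viral RNA and block its translation. IFIT1 had 1.31, 1.43 and 1.69 CPM in Tau libraries, against 1.02, 1.11 and 0.443 CPM in control libraries. All Tau values were above all control values, but the log2 fold change of 0.76 had an interval of -0.01 to 1.54 and an adjusted p of 0.179. IFIT5 had 7.22, 7.27 and 7.60 CPM in Tau libraries, against 9.71, 11.4 and 7.56 CPM in control libraries. Control replicate 3 lay within the Tau range, the log2 fold change was -0.38 (interval -0.82 to 0.06), and the adjusted p was 0.234. Without control replicate 3 it was called lower, at -0.52 and an adjusted p of 0.0677. IFIT2 had 2, 9 and 3 reads in Tau libraries and 4, 4 and 8 in control libraries, and IFIT3 had 0, 1 and 2 reads in Tau libraries and 0, 1 and 0 in control libraries.

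The transcription factors of the response did not pass the test. STAT2 had 22.7, 26.2 and 25.3 CPM in Tau libraries, against 26.1, 20.5 and 22.7 CPM in control libraries, with overlapping groups and a log2 fold change of 0.10 (interval -0.27 to 0.47, adjusted p = 0.722). IRF7 had 20.1, 16.5 and 15.2 CPM in Tau libraries, against 14.8, 13.4 and 18.5 CPM in control libraries, and a log2 fold change of 0.15 (interval -0.27 to 0.57, adjusted p = 0.635). IRF9, the DNA-binding partner of the STAT proteins, had a log2 fold change of 0.13 (adjusted p = 0.812), and IRF1, which drives genes after type II interferon, had 0.27 (adjusted p = 0.462). Part of IRF9 is shared with a readthrough gene (1544 exon bases) and part of IRF1 with the antisense gene IRF1-AS1 (2805 exon bases).

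The oligoadenylate synthetases, which trigger decay of viral RNA, were represented in the test by OAS1 alone, with a log2 fold change of 0.37 (interval -0.35 to 1.10, adjusted p = 0.483). OAS3 had 1, 0 and 1 reads in Tau libraries and 0, 1 and 0 in control libraries, and OASL had 11, 5 and 8 reads in Tau libraries and 4, 4 and 3 in control libraries. MX1, a GTPase that traps viral nucleocapsids, had 4, 4 and 3 reads in Tau libraries and 0, 4 and 3 in control libraries. RSAD2 (viperin) had a log2 fold change of 0.05 (interval -0.83 to 0.93, adjusted p = 0.952), and it shares 351 exon bases with CMPK2 on the other strand. IFI44, ISG20, an exonuclease, and SAMD9L had log2 fold changes of 0.42, 0.37 and 0.92, with overlapping groups and adjusted p-values of 0.453, 0.464 and 0.232. SAMD9 had 12, 5 and 10 reads in Tau libraries and 8, 8 and 3 in control libraries. IFI35 had 5, 1 and 3 reads in Tau libraries and 0 in each control library, and TRIM22 had 2, 7 and 2 reads in Tau libraries and 2, 0 and 1 in control libraries. The 14 untested genes with reads summed to 154 reads in Tau libraries and 90 in control libraries, and the most any of them had in a library was 12. When edgeR was run without the low-count filter, IFI35 and IFIH1 were called higher.

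Across the 23 tested genes the median log2 fold change was 0.70, against -0.03 over all tested genes. Positive values were found for 21 of the 23. The 4 largest values were those of BST2, GBP2, IFITM2 and IFITM3, whose Tau values helped them pass the filter. Medians over the 23, here and below, include these genes. No median was taken over the 18 genes at the filter's level in all 6 libraries. In 10 genes every Tau library was above every control library, against 16.1% of all tested genes, and in 0 genes the reverse held, against 16.8%. Of these 10, BST2, GBP2, IFITM2 and IFITM3 were below the filter's level in at least 1 control library. Among the 18 genes at that level in all 6 libraries, every Tau library was above every control library in 6 (IFI6, IFI27, IFIT1, DDX58, PARP9 and USP18), against 15.7% of the 15184 genes at that level throughout, and the reverse held in 0, against 17.6%. The spread within groups was not even. The members' median deviation from each gene's mean over libraries, on the log2 scale, was 0.25, 0.23 and 0.41 in Tau libraries and -0.12, -0.57 and -0.07 in control libraries, so control replicate 2 was lowest. The number of calls depended on which libraries of either group were used. Without control replicate 1 only IFI6 of the 23 was called, against 0.995% of all tested genes called higher. Without control replicate 2 there were 3 (IFI6, BST2 and GBP2), against 5.45%. Without control replicate 3 there were 9 higher, against 15.2%, and 1 lower, against 2476 of 16778 genes. Leaving out Tau replicate 1, 2 or 3 gave 8, 5 and 4 higher, against 1232, 646 and 777 of all 16778 tested genes.

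**Figure D3:**
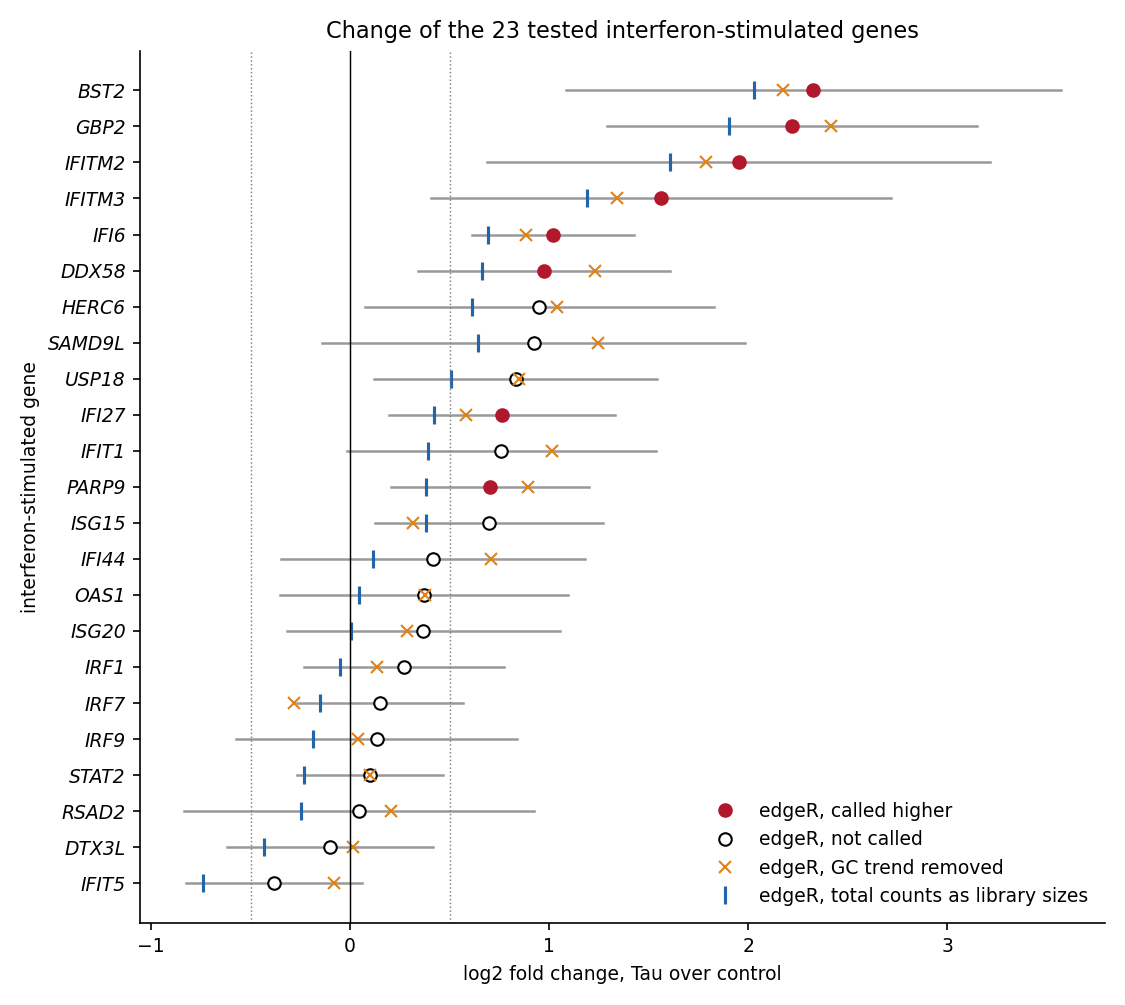
Log2 fold change of Tau over control (horizontal axis) for the 23 tested genes, with 95% intervals as grey lines, filled red circles for genes called higher, open circles for genes not called, orange crosses for the fit with the GC trend removed and blue ticks for total counts as library sizes. Dotted lines mark the fold limit of 0.5 either side of 0, and the values run from 2.33 for BST2 to -0.38 for IFIT5.

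Several measures of the libraries moved with the labels. Reads in genes of the mitochondrial genome took 45.8, 57.8 and 53.9% of all reads in Tau libraries, against 45.6, 30.5 and 45.6% in control libraries. With that share as a covariate in edgeR, 2 of the 23 genes were called higher (IFI6 and GBP2), against 4.3% of all tested genes, and 0 lower, against 3.58%, and the median log2 fold change of the 23 was 0.45. Before TMM scaling the 41 genes summed to 110.25, 83.2 and 93.7 RPM in Tau libraries, against 89.0, 98.5 and 89.9 in control libraries, which overlap. After TMM the sums were 103.5, 108.5 and 108.9 CPM in Tau libraries, against 87.3, 73.7 and 86.4 CPM in control libraries, which do not. With total counts as library sizes, 4 genes were called higher (IFI6, BST2, GBP2 and IFITM2), against 3.33% of all tested genes, and 0 lower, against 17.2%. That scaling lowered the median of all genes by 0.33 on the log2 scale, and the median of the 23 was then 0.38 against -0.36 for all genes. Fold changes over all tested genes also followed gene GC content (Spearman 0.456 over 16660 genes), while over the 23 genes the correlation was 0.137. With the GC trend removed in edgeR, 6 of the 23 were called higher, against 6.72% of all tested genes, and 0 lower, against 4.69%. BST2, GBP2, IFI6, DDX58 and PARP9 were among the 6, IFIT1 joined them (adjusted p = 0.0923), and IFITM2, IFITM3 and IFI27 dropped out with log2 fold changes of 1.79, 1.34 and 0.58 and adjusted p-values of 0.102, 0.166 and 0.180.

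**Figure D4:**
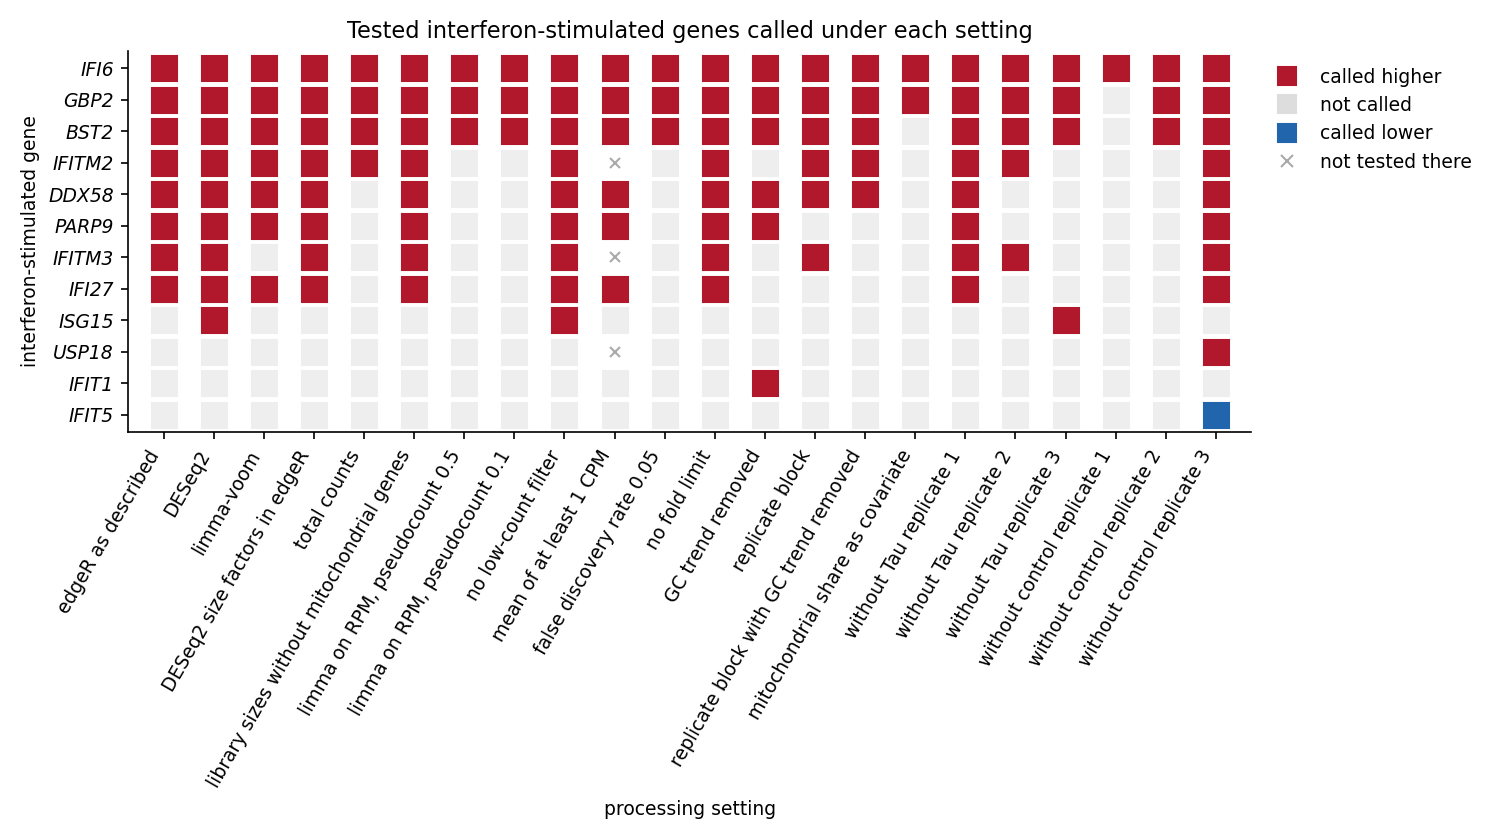
Calls for the 12 tested genes called under at least 1 setting (vertical axis) under edgeR as described and each of 21 alternatives (horizontal axis), with red squares for called higher, grey for not called, blue for called lower and a cross where the gene did not pass that setting's filter. IFI6 is called throughout, GBP2 in 20 and BST2 in 19 alternatives.

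Other cell types were checked by their markers. The summed level of 10 leukocyte and microglia markers was 1.58, 2.14 and 2.06 CPM in Tau libraries, against 1.17, 0.802 and 1.67 CPM in control libraries. Of these 10, 5 had 0 reads in all 6 libraries, CD14 made up most of the sum, and PTPRC (CD45) had at most 1 read in a library. The summed level of 10 noradrenergic and neuronal markers was lower, at 2655, 2680 and 2930 CPM in Tau libraries and 3327, 3897 and 3639 CPM in control libraries. Of 9 tested, 3 were called lower, DBH and ELAVL4 among them, against 8.42% of all tested genes, and 0 higher, against 9.37%. The markers did not move alike. PHOX2A went the other way (log2 fold change 0.51, adjusted p = 0.164, edgeR) with overlapping groups. HAND2, GATA3 and ISL1 overlapped between the groups and were not called, and CHGA weighed most in the sum. TH, a defining enzyme of that type, had 3 to 25 reads a library. The part of these markers in the results was not tested. In bulk samples fewer cells of a type and less RNA per cell cannot be told apart.

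The route upstream of these genes was followed with 103 further genes, none of them among the 41. No interferon gene was tested. Of 21 ligand genes only IFNA5 (0, 1 and 2 reads in Tau libraries, 0, 1 and 3 in control libraries), IFNL2 (1 read in Tau replicate 1) and IFNL3 (1, 5 and 3 reads in Tau libraries, 0, 0 and 2 in control libraries) had any read. The type I receptor subunits were expressed, with IFNAR1 at 8.38 ± 1.71 CPM in Tau and 8.08 ± 0.55 CPM in control (SD, n = 3 each) and IFNAR2 at 7.07 ± 1.86 CPM in Tau and 5.38 ± 1.19 CPM in control. The type II subunits were higher in level, with IFNGR1 at 36.7 ± 5.5 CPM in Tau and 44.5 ± 3.4 CPM in control and IFNGR2 at 32.1 ± 5.0 CPM in Tau and 32.3 ± 5.3 CPM in control. None of the 4 subunits passed the test, with adjusted p-values (edgeR) of 0.884, 0.320, 0.30 and 0.985, though IFNGR1 was called lower with total counts as library sizes and with limma on RPM. The kinases JAK1, JAK2 and TYK2 had log2 fold changes of 0.35, 0.07 and 0.24 and adjusted p-values of 0.196, 0.884 and 0.436. SOCS3, a feedback inhibitor of JAK kinases, was called higher, with 5.98, 7.06 and 7.27 CPM in Tau libraries, against 4.95, 2.62 and 4.60 CPM in control libraries (log2 fold change 0.74, adjusted p = 0.0855). It was called in 8 of the 21 alternatives, and among those that lost it were total counts, the GC trend removed, and the fits without any 1 Tau library or without control replicate 1 or 2. Its relative SOCS1 was not tested, with 28 reads in Tau libraries and 26 in control libraries. Of 16 tested genes for receptors and signalling, 1 was called higher, which is 6.25% against 9.37% of all tested genes, and 0 lower, against 8.42%. With the GC trend removed 0 were called, against 6.72% of all tested genes higher and 4.69% lower. With total counts 0 were higher, against 3.33%, and 2 lower, against 17.2%.

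Of 11 tested genes for the sensing of nucleic acids, 3 were called higher, which is 27.3% against 9.37% of all tested genes, and 0 lower, against 8.42%. DHX58, a relative of RIG-I, had 0.773, 1.64 and 1.25 CPM in Tau libraries, against 0.309, 0.425 and 0.613 CPM in control libraries (log2 fold change 1.43, adjusted p = 0.0418). IRF3, the factor that turns on interferon genes after sensing, had 42.2, 42.1 and 39.2 CPM in Tau libraries, against 21.8, 22.2 and 28.2 CPM in control libraries (log2 fold change 0.77, adjusted p = 0.0203). TICAM1, the adaptor of the RNA receptor TLR3, had 10.5, 9.97 and 10.1 CPM in Tau libraries, against 5.48, 7.22 and 7.67 CPM in control libraries (log2 fold change 0.58, adjusted p = 0.0779). In each of these 3 the groups did not overlap. DHX58 had 10 reads in control replicate 1, just below the filter's level, while every Tau library was above it. Its Tau values therefore helped it pass the filter. Calls in the pathway lists were not recounted over genes at that level in all 6 libraries. DHX58 was called in 15 of 20 alternatives, IRF3 in 15 of 21 and TICAM1 in 8 of 21. With the GC trend removed 1 of the 11 was called higher, against 6.72% of all tested genes. With total counts 1 was higher, against 3.33%, and 2 lower, against 17.2%.

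Of 23 tested genes in a list of further interferon targets, 10 were called higher, which is 43.5% against 9.37% of all tested genes, and 0 lower, against 8.42%. UBA7, the enzyme that activates ISG15 for conjugation, had 6.18, 7.48 and 6.46 CPM in Tau libraries, against 2.38, 1.53 and 3.68 CPM in control libraries (log2 fold change 1.42, adjusted p = 0.0179). DDX60L, a helicase, had 5.14, 7.82 and 5.17 CPM in Tau libraries, against 2.82, 1.84 and 2.69 CPM in control libraries (log2 fold change 1.31, adjusted p = 0.0169). HELZ2, a nuclear coactivator with helicase domains, had 10.9 ± 2.2 CPM in Tau and 5.61 ± 0.92 CPM in control (log2 fold change 0.96, adjusted p = 0.0249). The other 7 called were LGALS9, NLRC5, SP110, MOV10, TRIM21, SHFL and APOL2, with log2 fold changes of 0.58 to 1.32. DDX60L was called in 20 of the 21 alternatives, UBA7 in 19 and HELZ2 in 13, and the other 7 in 7 to 15. With the GC trend removed 6 of the 23 were called higher, against 6.72% of all tested genes, and 0 lower, against 4.69%. With total counts 3 were higher, against 3.33%, and 0 lower, against 17.2%. Over the 3 tested lists 14 of 50 genes were called higher, which is 28% against 9.37% of all tested genes, and 0 lower, against 8.42%. The 14 include DHX58, which its Tau values helped past the filter. At an unadjusted p below 0.05 (edgeR) 17 were higher and 1 lower, and the share of all tested genes at that limit was not counted. With the GC trend removed 7 of the 50 were called higher, which is 14% against 6.72% of all tested genes. Without control replicate 1 there was 1, which is 2% against 0.995%. With total counts as library sizes 4 were called higher, which is 8% against 3.33%, and 4 lower, against 17.2%.

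**Figure D5:**
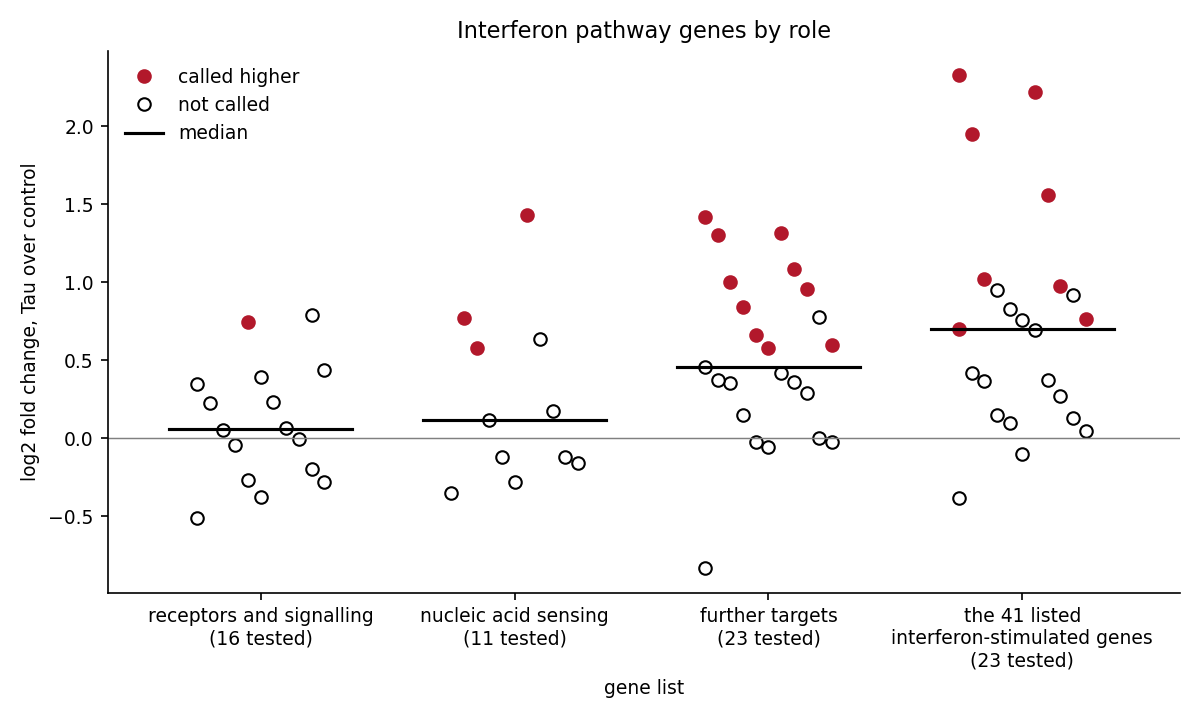
Log2 fold change of Tau over control (vertical axis) for tested interferon pathway genes by role, with filled red circles for genes called higher, open circles for genes not called and a line at each list's median. The median is 0.06 for receptors and signalling, 0.12 for nucleic acid sensing, 0.46 for further targets and 0.70 for the listed interferon-stimulated genes. The last list includes BST2, GBP2, IFITM2 and IFITM3, whose Tau values helped them pass the filter.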

How the data were processed

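RNA-seq of SH-SY5Y cells was read as deposited. Per the labels and the study's methods, bases were called with bcl2fastq 1.8.4, reads aligned to GRCh38 with TopHat2 2.1.0 and the deposited counts per gene made by the authors with featureCounts 1.5.0. The library kit is named differently in the labels and the methods. The RPM values deposited by the authors are those counts per 1000000 reads of the library, and the deposited RPKM values divide RPM by a gene length. RPKM served for levels between genes, RPM for 1 kind of alternative, and counts for every test.

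Library totals ran from 27945481 to 31706415 reads. Tests used edgeR 4.0.16 (quasi-likelihood F test, TMM, label only) in R 4.3.3 with Benjamini-Hochberg adjustment over 16778 genes. Log2 CPM values used for deviations have a prior count of 2, and intervals for 0 reads cover counting error only. DESeq2 1.42.0 and limma 3.58.1 gave alternatives, and the GC trend was a lowess fit (span 0.3) passed as an offset. GC content, positions and exon overlaps come from GENCODE 44, and promoters from RefSeq. On simulated data of 16778 genes for the Tau and control contrast, edgeR recovered 59% of 100 genes changed by 1 on the log2 scale and 96% of 100 changed by 2, with 26 false calls. Only 200 genes were changed there, while 1572 were called higher and 1413 lower in the data. These figures are therefore not error rates of the calls given here.

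The 41 genes and all lists were chosen with earlier results of these data known. All 41 genes are named. Of the 103 pathway genes those named are type I and II receptor subunits, JAK1, JAK2, TYK2, SOCS1, SOCS3, interferon genes with a read, and the 3 called genes with the smallest p in each list, and the other called targets are named after their values were seen. Marker lists covered noradrenergic, mesenchymal, leukocyte and astrocyte genes. Of 7 tested mesenchymal markers 1 (COL1A1) was called higher, against 9.37% of all tested genes, and 0 lower, against 8.42%. COL1A2 of that list was not tested, with 0 reads in Tau libraries and 2 in control libraries. The mesenchymal list summed to 554.1 to 578.2 CPM in Tau libraries and 634.6 to 643.3 CPM in control libraries. The astrocyte list summed to 1.87 to 2.45 CPM in Tau libraries and 1.08 to 1.70 CPM in control libraries, with GFAP at 0 reads. S100B made up most of that sum. It was the only gene of the list that was tested, and it was not called (adjusted p = 0.270, edgeR). Library pairs of a group differed by 15.3 to 186.9 times the sampling noise (chi-square per degree of freedom), so none was counted as a repeat. Some genes that the rules pick are not reported here. The brain data of the study are not analysed here.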

Additional observations from a re-analysis of the deposited data

How the results depend on the processing

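No called member changed sign under any alternative run. Of 475 values of single members under the alternatives, 415 kept their direction and side of the threshold or stayed uncalled, 54 lost a call and 6 gained one. The 8 members called higher became 4 with total counts as library sizes, 3 with limma on RPM at either pseudocount (0.5 or 0.1), 3 at a false discovery rate of 0.05, 5 with the replicate block and the GC trend removed together, and 2 with a covariate for mitochondrial reads. Calls were 9 with DESeq2, 7 with limma-voom, 11 without a low-count filter and 6 with a mean of at least 1 CPM. Over all genes, calls higher were 1680 of 17311 with DESeq2 and 1631 of 16778 with limma-voom. Without the filter they were 2185 of 29036, and with at least 1 CPM 1316 of 14151. Calls higher over all 16778 genes also fell, from 1572 to 559 with total counts. They were 572 and 586 with limma on RPM, 899 at the stricter rate, 507 with block and GC trend, and 721 with the covariate. Leaving out 1 library gave 1 to 9 members called higher and 0 to 1 lower, the lowest without control replicate 1 and the highest without control replicate 3. Over all 16778 tested genes the same fits called 167 to 2546 higher and 67 to 2476 lower.

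The 14 other pathway genes called higher became 4 with total counts, 4 with limma on RPM at either pseudocount, 7 at a false discovery rate of 0.05, 7 with the GC trend removed, 3 with the replicate block and the GC trend removed together, and 3 with that covariate. Calls higher over all genes also fell under each of these settings. The 0 called lower became 4 with total counts, 4 with limma on RPM at either pseudocount and 1 without a low-count filter. Calls lower over all genes were then 2886 with total counts, 2693 and 2779 with limma on RPM, and 1923 of 29036 without the filter. Leaving out 1 library gave 1 to 16 higher and 0 to 1 lower, with the ranges over all genes as given above. The cause of these changes was not tested.

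Total counts and RPM lowered the median of all tested genes by 0.33 and by 0.28 to 0.32 on the log2 scale. The share of calls over all genes moved with them, with 559 higher and 2886 lower under total counts, against 1572 higher and 1413 lower under TMM. With the GC trend removed the calls over all genes were 1127 higher and 787 lower, and without control replicate 1 they were 167 higher and 67 lower. With a false discovery rate of 0.05 they were 899 higher and 716 lower.

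Replicate numbers did not pair the libraries: libraries with the same number had deviations correlated at -0.15, -0.46 and 0.17. With the replicate block, 6 members and 10 other pathway genes were called higher, against 1286 of all 16778 tested genes. The 18 members that were not tested had too few reads for the filter, with at most 12 reads in a library. Whether more reads per library would bring them past it was not tested.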
